A study of Homo sapiens with 11 samples.

Results

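The HSP70 family was followed in HEK293T cells, a human embryonic kidney line, after siRNA knockdown of NAE1, UBE2M or URM1. The members were the rows of the gene table whose gene name was HSPA1A, HSPA1B, HSPA2, HSPA4, HSPA4L, HSPA8, HSPA9, HSPA12A, HSPA13 or HSPA14. These 10 names stood on 11 of the 58735 rows, because HSPA14 names a pair of rows, and all 11 rows were among the 18368 that passed the filter on low counts. The study compared 3 libraries labelled control siRNA with 3 siNAE1 libraries (50 nM siRNA), 3 siUBE2M libraries (70 nM) and 2 siURM1 libraries (60 nM), each group harvested after 48 h. NAE1 is a subunit of the E1 enzyme and UBE2M the E2 enzyme of NEDD8, a ubiquitin-like modifier, and URM1 is a ubiquitin-like modifier that also carries sulfur for tRNA thiolation. The question the design put was which genes respond when URM1 or the enzymes proposed to attach it are depleted. Each target was depleted with the siRNA product of 1 vendor (MCE), while the supplement lists a negative control of another vendor (IDT). If that control was used here, vendor and knockdown cannot be told apart in comparisons with control. The dose of the control siRNA is not given in the sources used here. The labels give the control cells a control siRNA and the methods a non-targeting one, while the study's list of libraries names them as wild type.

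HSP70 proteins bind exposed hydrophobic stretches of unfolded polypeptides and release them in a cycle driven by ATP. J-domain proteins deliver clients and trigger ATP hydrolysis, and nucleotide exchange factors reopen the cycle. HSPA8 is the constitutive cytosolic form, HSPA1A and HSPA1B encode the classical stress-inducible form, and HSPA2 is a related form best known from testis. HSPA9 (mortalin) works in the mitochondrial matrix, HSPA4 and HSPA4L belong to the HSP110 branch that acts as exchange factors, HSPA14 sits on ribosomes with the J-domain protein DNAJC2, and HSPA13 and HSPA12A are divergent members. Stress-inducible members are switched on by HSF1, which binds heat shock elements, arrays of inverted GAA units.

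The upstream sequences of HSPA1A, HSPA1B and HSPA8 are shown because, of the 4 members that rose strongly, these 3 held inverted GAA units in the windows scanned. None was found in the HSPA2 window (chr14:64540491-64540740), which lies inside the listed span of that row. The part of these units in the rise was not tested. Within the 250 bases before the RefSeq start (GRCh38.p14), the units searched on both strands were GAANNTTC, which 5.78% of 35116 human promoters held, and TTCNNGAA, which 6.62% held. An element of 3 units, in which one of each overlaps by 3 bases, was held by 0.441%. The stretches below run 5′ to 3′ on the gene's strand, with the units in capitals. For HSPA1A and HSPA1B they stop before the first annotated base of the gene, and for HSPA8, whose window lies within alternative first exons, only the 23 bases around each of its elements are given.
HSPA1A, chr6:31815293-31815463, plus strand: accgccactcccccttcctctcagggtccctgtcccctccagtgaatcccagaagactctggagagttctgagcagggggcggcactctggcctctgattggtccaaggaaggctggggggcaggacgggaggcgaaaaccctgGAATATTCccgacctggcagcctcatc
HSPA1B, chr6:31827488-31827734, plus strand: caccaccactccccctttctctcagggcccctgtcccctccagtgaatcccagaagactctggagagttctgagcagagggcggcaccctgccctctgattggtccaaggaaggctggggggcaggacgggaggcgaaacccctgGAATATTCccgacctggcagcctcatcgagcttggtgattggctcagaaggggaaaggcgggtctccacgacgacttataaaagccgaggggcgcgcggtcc
HSPA8 far element, chr11:123062349-123062371, minus strand: agcttGAAAGTTCCAGAAcgctg
HSPA8 near element, chr11:123062174-123062196, minus strand: gccccTTCTGGAAGGTTCtaaga
HSPA1A and HSPA1B each held 1 GAANNTTC unit, starting 106 and 105 bases before the start, and their windows were identical at 235 of 249 aligned bases (94.4%). HSPA8 held 2 elements of 3 units, starting 230 and 55 bases before its start. HSPA1A and HSPA1B also held TATAAA, found in 10.7% of promoters, and HSPA1A, HSPA1B and HSPA8 each held CCAAT at 2 places, a motif found in 32% of promoters. No unit of either kind was found in these windows of HSPA2, HSPA4, HSPA9, HSPA13 or HSPA12A. One of the 3 HSPA4L windows held 1 TTCNNGAA unit. The second row named HSPA14 (MSANTD7 in RefSeq), which fell in all 3 knockdowns, held 1 GAANNTTC unit starting 72 bases before its start and CCAAT at 2 places. Its window ends at base 14838305, and HSPA14, which rose in all 3, starts at 14838306 on the same strand in GENCODE v44. The unit therefore lies upstream of both.

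The libraries held between 11733163 and 16321391 counted fragments. Mitochondrial genes took 4.57% to 4.93% of them in control, 4.9% to 5.32% in siNAE1, 4.12% to 4.43% in siUBE2M and 5.29% to 5.72% in siURM1 libraries. Each target was lowest in its own knockdown: NAE1 stood at 38.9% of the control CPM in siNAE1 cells, UBE2M at 6.34% in siUBE2M cells and URM1 at 28.6% in siURM1 cells, so the depth of depletion differed between the groups. The 4 HEK293T genes (NEFL, NEFM, PAX2 and LIN28B) were above 1 CPM in all 11 libraries and summed to 221 to 252 CPM in control, 381 to 404 in siNAE1, 190 to 201 in siUBE2M and 337 to 345 CPM in siURM1 libraries. Genes of other cell types were low: all 6 hepatocyte genes stayed under 1 CPM in every library, as did 3 of 4 leukocyte genes and 2 of 4 fibroblast genes. The summed level of the fibroblast genes, mostly COL1A1, ranged from 18 to 23.5 CPM in control and siNAE1 libraries and from 22.2 to 31.3 CPM in siUBE2M and siURM1 libraries. The part of either list, or of the mitochondrial share, in the results below was not tested.

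HSPA1A, HSPA1B, HSPA8 and HSPA2, which are cytosolic HSP70 genes, rose strongly in all 3 knockdowns. HSPA9, the mitochondrial member, was lower in all 3, by less, as were HSPA13 and the second row named HSPA14. The first HSPA14 row was higher in all 3, also by less. The 4 that rose strongly were the members that passed both an adjusted p below 0.05 and a log2 fold change of at least 1. They did so in siNAE1, siUBE2M and siURM1 cells alike. Under limma on log2(FPKM + 1) HSPA2 in each knockdown and HSPA1A in siUBE2M cells passed the adjusted p but not the fold. Over all genes tested, 5.3% passed the same rule upward in siNAE1 cells, 3.22% in siUBE2M cells and 2.89% in siURM1 cells. None of the 11 rows passed it downward by edgeR, DESeq2 or limma, the lowest edgeR value being -0.73 at any p, against 8.61%, 3.89% and 4.73% of all genes. Tests used edgeR's quasi-likelihood fit over all 11 libraries with Benjamini-Hochberg adjustment over all genes tested, and levels are CPM, counts relative to the library total with TMM scaling, unless FPKM, which also divides by gene length, is named. As each library pooled a culture, more RNA per cell and a larger share of cells expressing a gene cannot be told apart.

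**Figure D1:**
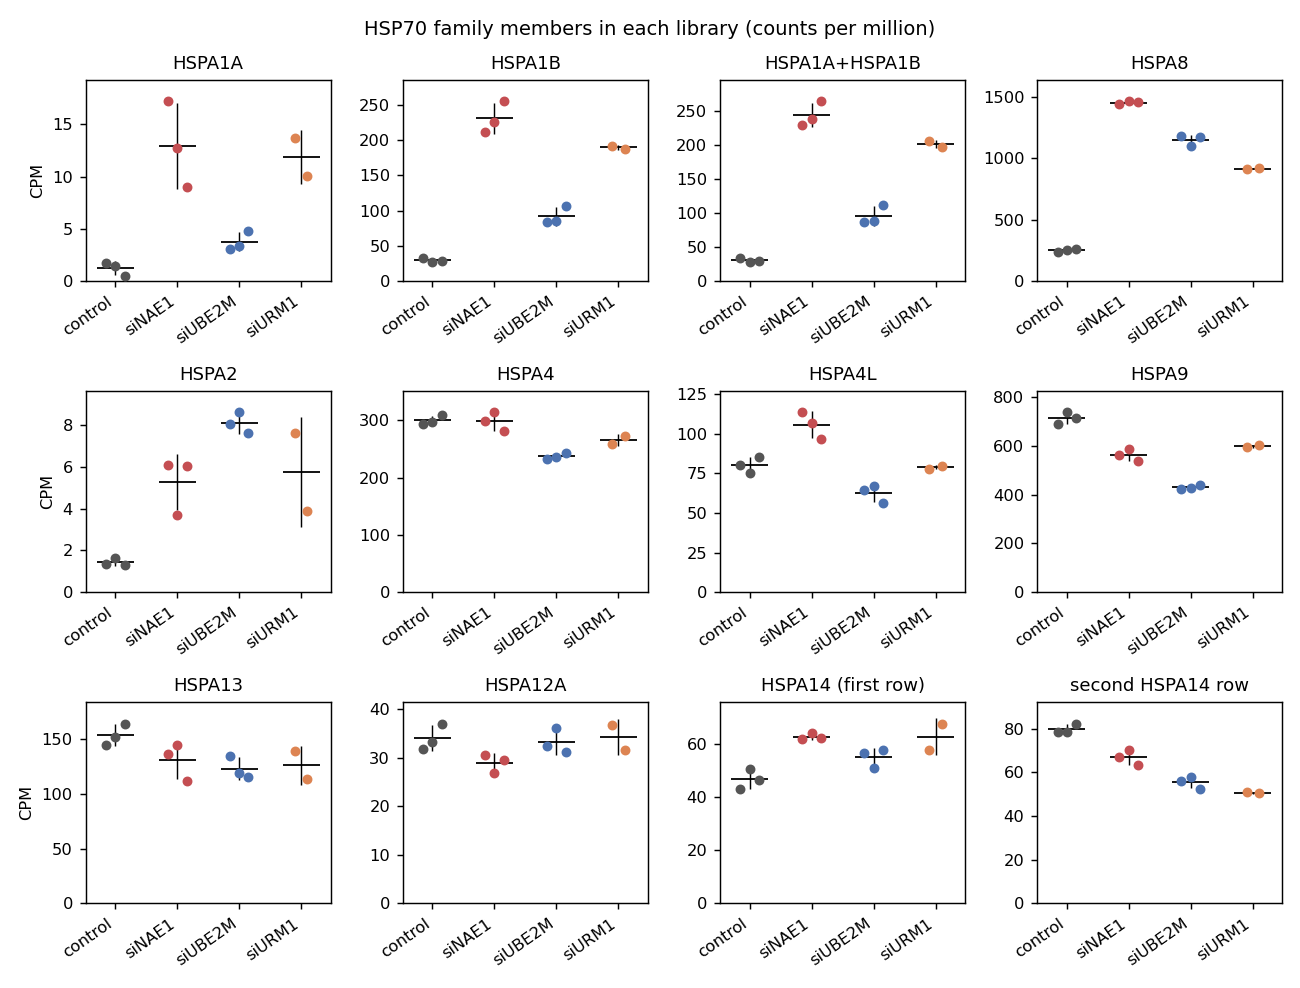
Level of each HSP70 row in the 11 libraries, in CPM on linear axes that start at 0, for control, siNAE1, siUBE2M and siURM1 (points are libraries, the horizontal line is the group mean, the vertical line spans 1 SD on each side). HSPA8 sits between 234 and 261 CPM in control libraries and between 915 and 1465 CPM in the others, and HSPA9 is highest in control.

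At adjusted p below 0.05 alone, 6 of the 11 rows were higher and 4 lower in siNAE1 cells, where 27.6% of all genes tested were higher and 27.1% lower. In siUBE2M cells 5 rows were higher and 5 lower, with 22.7% and 22.6% among all genes. In siURM1 cells 5 rows were higher and 4 lower, with 20.8% of all genes called in each direction. The median log2 fold change of the 11 rows was 0.40, -0.03 and 0.01 in siNAE1, siUBE2M and siURM1 cells, and that of all genes tested was -0.002, 0.007 and -0.021.

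HSPA1A and HSPA1B lie on chromosome 6 (GRCh38, 31815464 to 31817946 and 31827735 to 31830255, both on the plus strand) and have 1 exon each. Their main transcripts were identical at 2312 of 2388 aligned bases (96.8%), and 69.6% and 70.1% of the 150-base windows in them occur in the partner or in the unnamed long noncoding RNA that overlaps HSPA1B. A read pair that falls in these windows cannot be assigned to 1 of the genes, and windows found in a single gene lie only at the ends, in bases 1 to 357 and 1775 to 2400 of HSPA1A and in bases 1 to 356 and 1869 to 2517 of HSPA1B. The sum of both rows was therefore tested as well.

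The sum of HSPA1A and HSPA1B was 34.2, 28.6 and 29.4 CPM in the control libraries. It was 229, 238 and 264 CPM in siNAE1, 86.7, 88.5 and 112 CPM in siUBE2M and 206 and 197 CPM in siURM1 libraries. Every knockdown library was above every control library, and the siUBE2M libraries formed an intermediate group that met neither neighbour. Against a control mean of 30.7 ± 3.05 CPM (SD, n = 3), the sum rose 7.92-fold in siNAE1 cells, 3.11-fold in siUBE2M cells and 6.56-fold in siURM1 cells. The log2 fold changes were 2.99 ± 0.09, 1.64 ± 0.09 and 2.71 ± 0.09 (SE), with adjusted p of 5.2e-23, 7.1e-16 and 9.3e-21.

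HSPA1B carried nearly all of these counts. It stood at 32.5, 27.1 and 28.9 CPM in control, 212, 226 and 255 CPM in siNAE1, 83.6, 85.1 and 107 CPM in siUBE2M and 192 and 187 CPM in siURM1 libraries. HSPA1A held 8 to 29 counts in a control library and 42 to 224 counts in a knockdown library, or 1.24 ± 0.655 CPM in control, 13.0 ± 4.12 in siNAE1, 3.78 ± 0.934 in siUBE2M (SD, n = 3 each) and 11.9 ± 2.61 in siURM1 cells (SD, n = 2). HSPA1A rose by 3.37 ± 0.27, 1.59 ± 0.31 and 3.24 ± 0.29 on the log2 scale (SE, adjusted p 3.3e-12, 8.2e-05 and 8.2e-11). The share of the summed counts that was given to HSPA1A ranged from 1.72% (95% Wilson interval 0.872 to 3.35) in control replicate 3 to 7.51% (6.61 to 8.51) in siNAE1 replicate 1. Within the siNAE1 group alone it ran from 3.4% to 7.51%, with intervals that did not meet, so the split between the rows varied between replicates by more than counting error. The intervals cover counting error only.

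HSPA8 (chromosome 11, 123057489 to 123063230, minus strand) had the most counts of the members that rose. Its level was 234, 257 and 261 CPM in control libraries. It was 1441, 1465 and 1459 CPM in siNAE1, 1179, 1101 and 1171 CPM in siUBE2M and 915 and 919 CPM in siURM1 libraries. The 4 groups did not overlap, in the order siNAE1, siUBE2M, siURM1, control. The rise was 5.81-fold, 4.59-fold and 3.66-fold (log2 fold change 2.54, 2.20 and 1.87, each with an SE of 0.06, adjusted p 3.3e-25, 1e-23 and 6.3e-21). Ranked among the 10468 genes that averaged 10 CPM or more, HSPA8 had the highest log2 fold change of all in siUBE2M cells and was placed 5 in siNAE1 and 18 in siURM1 cells.

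HSPA8 has processed copies elsewhere in the genome, to which its reads could be misassigned. One of them, HSPA8P13, had 42 to 63 counts in control, 3 to 4 in siNAE1, 19 to 27 in siUBE2M and 24 to 28 in siURM1 libraries, the direction opposite to HSPA8 (named after its values were seen). The other 17 HSPA8 and HSPA9 pseudogene rows never exceeded 11 counts in a library, and 8 of them were at 0 throughout. No 150-base window of the HSPA8 main transcript occurred in a transcript of another gene.

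HSPA2 (chromosome 14, 64535905 to 64546173, plus strand) rose as well, from a low level. It had 22, 27 and 21 counts in the control libraries, or 1.33, 1.66 and 1.33 CPM. It reached 6.07, 3.71 and 6.01 CPM in siNAE1, 8.03, 8.59 and 7.58 CPM in siUBE2M and 7.61 and 3.88 CPM in siURM1 libraries. All knockdown libraries lay above the controls, but the 2 siURM1 libraries lay further apart than the siNAE1 and siURM1 means. The log2 fold changes were 1.85 ± 0.26, 2.48 ± 0.25 and 2.00 ± 0.28 (SE, adjusted p 4.2e-07, 1e-09 and 5.7e-07). Without siURM1 replicate 1 the siURM1 value was 1.43, and without replicate 2 it was 2.40.

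**Figure D2:**
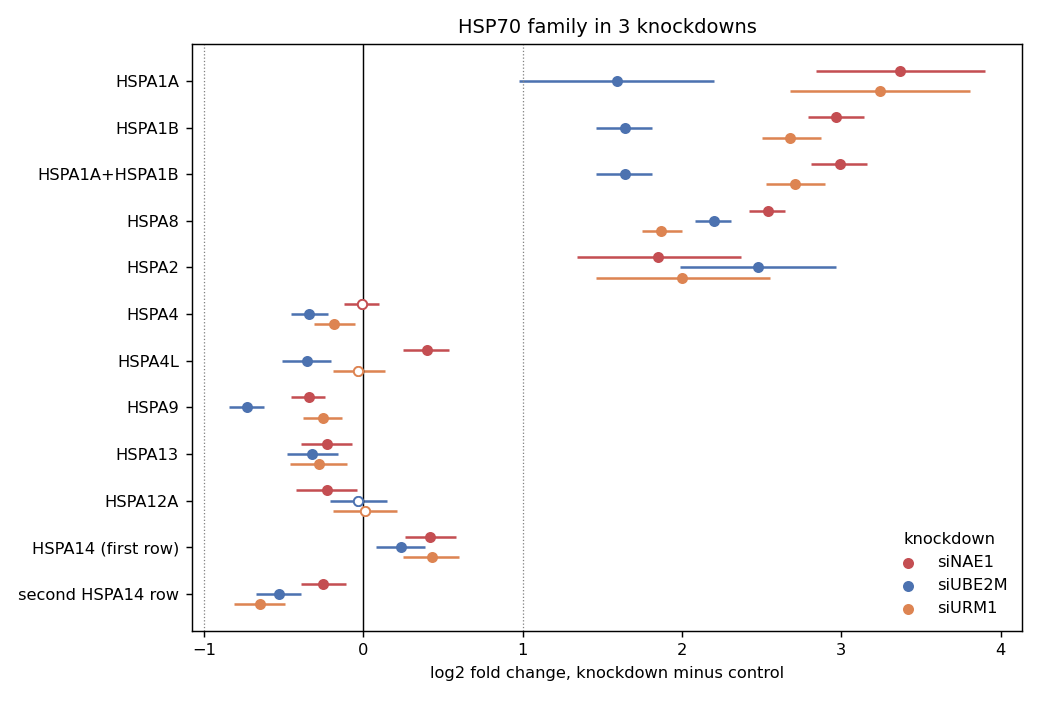
Log2 fold change of each HSP70 row in siNAE1, siUBE2M and siURM1 cells against control (points, with bars for the 95% interval from the SE, open where the adjusted p was 0.05 or more, dotted lines at -1 and 1). HSPA1A, HSPA1B, their sum, HSPA8 and HSPA2 lie between 1.59 and 3.37, and every other row lies between -0.73 and 0.43.

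The knockdowns did not rank the 4 genes that rose strongly alike, as direct tests between knockdowns showed. The sum of HSPA1A and HSPA1B was 2.55-fold higher in siNAE1 than in siUBE2M cells (log2 difference 1.35 ± 0.08 SE, adjusted p 1.1e-14) and lower in siUBE2M than in siURM1 cells (-1.08 ± 0.09, adjusted p 2.3e-11). HSPA8 ran the other way between siUBE2M and siURM1, being higher in siUBE2M cells (0.33 ± 0.06, adjusted p 0.00012). HSPA8 was higher in siNAE1 cells than in either, by 0.34 ± 0.06 over siUBE2M and 0.67 ± 0.06 over siURM1 (adjusted p 8.3e-06 and 6.1e-10). Thus siURM1 cells had more HSPA1 RNA and less HSPA8 RNA than siUBE2M cells, and in both genes the libraries of these groups did not overlap.

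HSPA2 was highest in siUBE2M cells. Its level there exceeded that in siNAE1 cells (log2 difference, siNAE1 minus siUBE2M, -0.63 ± 0.22 SE, adjusted p 0.018), and the adjusted p was 0.15 without siNAE1 replicate 2 and 0.056 without siUBE2M replicate 2. Under limma the difference was -0.33 on log2(FPKM + 1), with and without a minimum of 1 FPKM (adjusted p 0.1 and 0.17), and -0.59 on log2(FPKM + 0.1) (0.21). The siUBE2M minus siURM1 difference was 0.48 with an interval of 0.02 to 0.94 before adjustment and an adjusted p of 0.11, and it was 1.05 (adjusted p 0.0077) without siURM1 replicate 1. Between siNAE1 and siURM1 the difference of -0.15 had an interval of -0.63 to 0.33 (adjusted p 0.67). The siNAE1 minus siURM1 difference of the HSPA1 sum was small, 0.27 ± 0.09 (adjusted p 0.013), and its adjusted p was 0.066 without siNAE1 replicate 3 and 0.11 without siURM1 replicate 2. The call was also lost under limma on log2(FPKM + 1), on log2(FPKM + 0.1) and with a minimum of 1 FPKM (adjusted p 0.2, 0.2 and 0.1).

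Over the 11 rows, 7 were higher and 1 lower in siNAE1 than in siUBE2M cells, with 22.7% and 21.6% of all genes called in these directions. Against siURM1 cells, siNAE1 cells had 5 rows higher and none lower (19.5% and 19.1% of all genes). At an unadjusted p below 0.05, 1 row, HSPA12A, was lower in siNAE1 cells, and neither DESeq2 nor limma called a row lower. Between siUBE2M and siURM1 cells 1 row was higher, HSPA8, and 4 were lower (16.7% and 18.3% of all genes). All comparisons with control share the 3 control libraries, and each knockdown group enters 2 of these differences.

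On a per-length scale, the summed level of the 4 genes that rose strongly was mostly HSPA8 in all groups. The deposited FPKM of HSPA1A, HSPA1B, HSPA2 and HSPA8 summed to 63.6 ± 2.20 in control, 392 ± 8.58 in siNAE1 and 273 ± 13.0 in siUBE2M (SD, n = 3 each) and 268 ± 2.09 in siURM1 cells (SD, n = 2), which is 6.17, 4.3 and 4.22 times the control level. HSPA8 gave 80.5% of the sum in control cells, 75.5% in siNAE1, 85.8% in siUBE2M and 70% in siURM1 cells. It accounted for 74.4%, 87.3% and 66.7% of the gain over control. HSPA2 stayed under 1% of the sum in every group, with means between 0.229% and 0.506%.

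The make-up of the cytosolic pool differed between siUBE2M and siURM1 cells. HSPA1A and HSPA1B together gave 17.6% to 21.9% of the FPKM sum in control libraries and 23.4% to 25.8% in siNAE1 libraries. They gave 12.3% to 15.5% in siUBE2M and 29.2% to 30.1% in siURM1 libraries. The ranges of the 4 groups did not meet, and siUBE2M was the group in which the inducible genes gave a smaller share than in control. These shares rest on the listed gene lengths, which count every annotated exon of a gene (4849 bases for HSPA8). With the lengths of the main transcripts (2264 bases for HSPA8) the means were 9.95% in control, 13.1% in siNAE1, 6.93% in siUBE2M and 16.5% in siURM1 cells, lower by more than 1.5 times but in the same order. The pools of siUBE2M and siURM1 cells were 4.3 and 4.22 times control in FPKM. As counts over the library total, without TMM scaling, and over the listed lengths they were 4.14 and 3.96 times control. Over the main transcript lengths such counts gave 4.27 and 3.71 times.

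**Figure D3:**
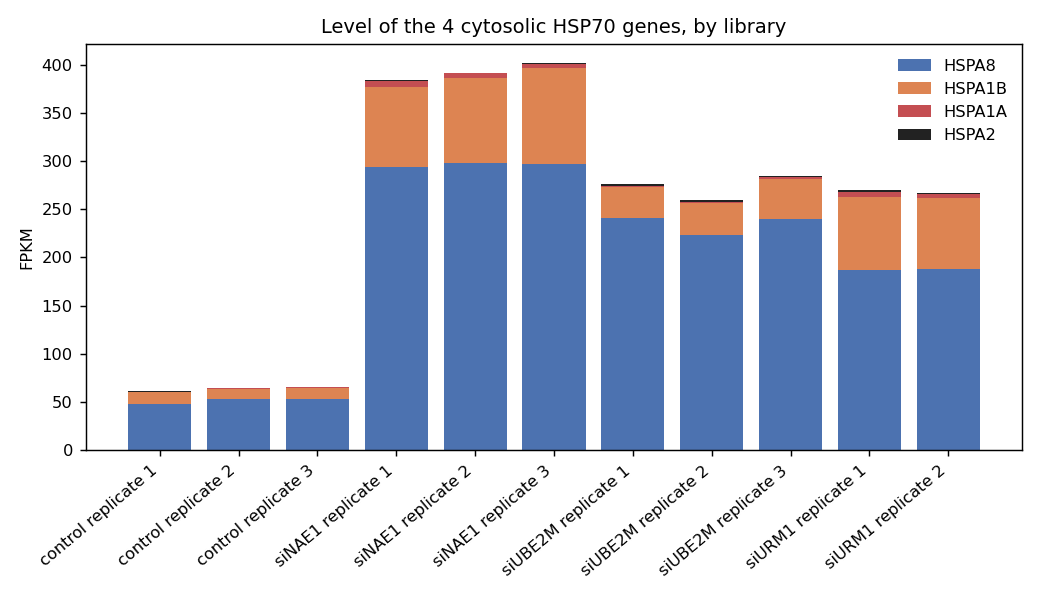
Deposited FPKM of HSPA8, HSPA1B, HSPA1A and HSPA2 stacked for each of the 11 libraries (bars start at 0, 1 bar per library). The control bars are near 64 FPKM, the siNAE1 bars near 392 FPKM, and the siUBE2M and siURM1 bars have about the same height, 273 and 268 FPKM on average, with a larger HSPA1B part in siURM1.

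The order of the family by level changed with knockdown, and HSPA8 led in every knockdown on both length scales used. In control cells HSPA9 had the highest FPKM, at 85.8 ± 3.26 FPKM (SD, n = 3), before HSPA4 at 57.7 ± 1.67 and HSPA8 at 51.3 ± 3.28, and these 3 did not overlap between libraries. HSPA13 followed at 36.3 FPKM. The HSPA14 row with 17.5 and its second row with 16.1 FPKM had overlapping libraries. HSPA1B stood at 11.6, HSPA4L at 6.85 and HSPA12A at 2.85 FPKM, and HSPA1A (0.496) and HSPA2 (0.247) came last, with libraries that overlapped. In siNAE1 cells HSPA8 led with 296 FPKM, before HSPA1B with 90.3 and HSPA9 with 67.2 FPKM. HSPA8 also led in siUBE2M cells (234 FPKM, before HSPA9 with 51.5) and in siURM1 cells (188 FPKM, before HSPA1B with 74.7 and HSPA9 with 71.9). Several of these orders rest on the listed lengths. As CPM per kilobase of the main transcript, HSPA8 (111) stood above HSPA4 (62.9) and below HSPA9 (162) in control cells. On that scale HSPA9 stood above HSPA1B in siNAE1 cells (128 against 91.7) and in siURM1 cells (136 against 75.4), and HSPA14 (26.5) no longer overlapped its second row (17.1) in control.

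HSPA9, the mitochondrial member (chromosome 5, 138553756 to 138575724, minus strand), fell in every knockdown. It stood at 690, 737 and 714 CPM in control and at 564, 587 and 536 CPM in siNAE1 libraries. It had 422, 428 and 441 CPM in siUBE2M and 594 and 603 CPM in siURM1 libraries. No knockdown library reached the lowest control library, and siUBE2M was the lowest group. The log2 fold changes were -0.34, -0.73 and -0.25, each with an SE of 0.06 (adjusted p 3.5e-06, 2.8e-12 and 0.0013). The siUBE2M level was below those in siNAE1 and siURM1 cells by log2 differences of 0.39 (siNAE1 minus siUBE2M, adjusted p 9.8e-07) and -0.48 (siUBE2M minus siURM1, adjusted p 2.7e-07). Between siNAE1 and siURM1 the difference was -0.09 with an interval of -0.21 to 0.03 (adjusted p 0.27).

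The HSP110-type members moved differently from each other. HSPA4 (chromosome 5, 133051962 to 133106449, plus strand) stayed at 282 to 314 CPM in siNAE1 libraries against 294 to 309 CPM in control, a log2 difference of -0.01 with an interval of -0.12 to 0.10. It fell in siUBE2M cells, where the libraries had 233, 236 and 243 CPM (-0.34 ± 0.06 SE, adjusted p 1.4e-05). The siURM1 libraries had 258 and 273 CPM (-0.18 ± 0.06, adjusted p 0.027), and the adjusted p lay between 0.051 and 0.25 when control replicate 1, 2 or 3, siUBE2M replicate 1 or siURM1 replicate 1 was left out. It was 0.059 with no filter on low counts and 0.052 under limma on log2(FPKM + 0.1).

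HSPA4L (chromosome 4, 127781821 to 127840733, plus strand) rose in siNAE1 cells and fell in siUBE2M cells. Its libraries had 80, 75.4 and 85.6 CPM in control, 113, 107 and 96.8 in siNAE1, 64.7, 67.2 and 56.5 in siUBE2M and 77.9 and 79.8 CPM in siURM1. The siNAE1 libraries lay above and the siUBE2M libraries below all controls, while the siURM1 libraries lay among them. The log2 fold changes were 0.40 ± 0.08 (adjusted p 4.2e-05), -0.35 ± 0.08 (adjusted p 0.00031) and -0.03 ± 0.09 (SE, adjusted p 0.83). The direct difference between siNAE1 and siUBE2M cells was 0.75 ± 0.08 (adjusted p 1.6e-09), that between siNAE1 and siURM1 cells 0.42 (adjusted p 0.00017) and that between siUBE2M and siURM1 cells -0.33 (adjusted p 0.0031).

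The name HSPA14 covered a pair of rows that moved in opposite directions. The first (ENSG00000187522, chromosome 10, 14838164 to 14871741, plus strand) is HSPA14 in GENCODE v44. The second (ENSG00000284024, 14838160 to 14847018, plus strand) carries the name MSANTD7 there and shares the start of the gene, and 170 windows of 150 bases occur in the main transcripts of both, 10.5% of those in HSPA14 and 3.77% of those in MSANTD7. HSPA14 was 43.2, 50.5 and 46.5 CPM in control, 61.8, 64.1 and 62.2 in siNAE1, 56.5, 50.9 and 57.7 in siUBE2M and 57.9 and 67.7 CPM in siURM1 libraries. The second row was 78.5, 78.7 and 82.4 CPM in control, 67.2, 70.5 and 63.2 in siNAE1, 56, 57.7 and 52.5 in siUBE2M and 51 and 50.4 CPM in siURM1 libraries.

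All knockdown libraries were above the controls in the HSPA14 row and below them in the MSANTD7 row. HSPA14 rose by 0.42 ± 0.08, 0.24 ± 0.08 and 0.43 ± 0.09 on the log2 scale (SE, adjusted p 4.5e-05, 0.018 and 0.00023), and MSANTD7 had log2 fold changes of -0.25 ± 0.07, -0.53 ± 0.07 and -0.65 ± 0.08 (adjusted p 0.0034, 3.4e-07 and 8.5e-08). The rise of HSPA14 in siUBE2M cells had an adjusted p of 0.1 without control replicate 1, 0.055 without siUBE2M replicate 1 and 0.068 without siUBE2M replicate 3. It was 0.071 under library totals, and 0.083 and 0.079 under limma on log2(FPKM + 1) and log2(FPKM + 0.1). Both rows overlap CDNF, a gene on the opposite strand with 86 to 121 counts in control and 14 to 59 counts in knockdown libraries. Whether the counting used strand is not given in the sources used here, so the part of CDNF in these counts was not tested. DNAJC2, the ribosomal J-domain partner of HSPA14, had log2 fold changes of 0.64, 1.30 and -0.41 (adjusted p 2.1e-08, 4.7e-15 and 4e-04; named after its values were seen).

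HSPA13 (chromosome 21, 14371115 to 14383484, minus strand), a membrane-associated form that lacks the usual substrate domain, had 144 to 164 CPM in control and 112 to 144 CPM in the knockdown libraries. Its log2 fold changes were -0.23 ± 0.08, -0.32 ± 0.08 and -0.28 ± 0.09 (SE, adjusted p 0.019, 0.0019 and 0.014). The siNAE1 value lost its call without control replicate 3 (adjusted p 0.11) or siNAE1 replicate 3 (0.19), and the siURM1 value lost it without control replicate 3 (0.086) or siURM1 replicate 2 (0.36). Under limma on log2(FPKM + 1) no knockdown kept the call (adjusted p 0.17, 0.086 and 0.19), nor on log2(FPKM + 0.1) (0.16, 0.079 and 0.18). Between knockdowns HSPA13 differed by at most 0.09, with intervals that lay within -0.22 to 0.25.

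HSPA12A (chromosome 10, 116671192 to 116850236, minus strand) had 31.8 to 37.0 CPM in control, 26.8 to 30.7 in siNAE1, 31.1 to 36.1 in siUBE2M and 31.6 to 36.8 CPM in siURM1 libraries. Its siNAE1 difference of -0.23 ± 0.10 (SE) had an adjusted p of 0.04, which rose to between 0.054 and 0.2 without control replicate 2 or 3 or without siNAE1 replicate 2 or 3. The call of HSPA12A was also lost with no filter on low counts (adjusted p 0.073) and under the 3 limma settings (0.17, 0.15 and 0.1). In siUBE2M cells the difference was -0.03 with an interval of -0.21 to 0.15, and in siURM1 cells 0.01 with an interval of -0.19 to 0.21. ENO4, which overlaps HSPA12A on the opposite strand, fell from 49 to 76 counts in control to 2 to 6 in siNAE1, 26 to 35 in siUBE2M and 8 to 10 counts in siURM1 libraries. These are few beside the 330 to 590 counts of HSPA12A.

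Apart from CDNF, ENO4 and the pair of rows named HSPA14, genes that overlap a member in the annotation had low counts where they were looked up. The long noncoding RNA opposite HSPA8 (ENSG00000288061) was not counted here. The pseudogenes and noncoding RNAs within HSPA4L had at most 17 counts in a library. The unnamed transcript within HSPA4 had 1 to 5 counts in control and 13 to 26 in siNAE1 libraries, against 3145 to 4898 counts for HSPA4. The small nucleolar RNAs hosted by HSPA8 and HSPA9 had at most 4 counts in a library, the antisense RNA of HSPA2 at most 8 and the noncoding RNA over HSPA1B at most 2.

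Of the 5 HSP70 relatives outside the family list that were tested, 4 were higher and 1 lower in siNAE1 cells, where 27.6% of all genes were higher and 27.1% lower. In siUBE2M cells 1 was higher and 1 lower (22.7% and 22.6% of all genes), and in siURM1 cells 1 was higher and 3 lower (20.8% each way), with list medians of 0.92, -0.09 and -0.19. HSPA5 (BiP), the HSP70 of the endoplasmic reticulum, rose in siNAE1 cells (855 ± 43.8 CPM against 614 ± 18.8 in control, SD, n = 3 each; log2 fold change 0.48, adjusted p 1.4e-08). In siUBE2M cells (457 CPM, -0.43, adjusted p 2.4e-07) and siURM1 cells (481 CPM, -0.35, adjusted p 3.7e-05) HSPA5 fell. HYOU1, the other relative of that compartment, had 0.92, -0.09 and -0.19 (adjusted p 1e-14, 0.2 and 0.021, named after its values were seen). HSPH1, the HSP110 exchange factor of the cytosol, rose in all 3, from 101 to 200, 170 and 172 CPM (0.99, 0.76 and 0.77, the largest adjusted p being 8e-11). HSPA6, a strictly heat-inducible form, held 0 to 12 counts in every library and was not tested. HSPA1L, which lies beside HSPA1A, held at most 26 counts and had log2 fold changes of -1.89, -0.64 and -1.72 (adjusted p 0.014, 0.36 and 0.047).

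Among the partners of the cycle, more nucleotide exchange factors and cytosolic J-domain proteins were higher than lower in siNAE1 cells. The exchange factor list mixes compartments, with GRPEL1 and GRPEL2 of mitochondria and SIL1 and HYOU1 of the endoplasmic reticulum. HSPH1 and HYOU1 are also among the relatives above, and GRPEL1 and GRPEL2 among the mitochondrial partners below. The counts that follow stand beside shares of all genes called higher and lower of 27.6% and 27.1% in siNAE1, 22.7% and 22.6% in siUBE2M and 20.8% and 20.8% in siURM1 cells. Of 11 exchange factors, 7 were higher and 1 lower in siNAE1, 4 and 3 in siUBE2M and 5 and 1 in siURM1 cells, with medians of 0.52, 0.14 and 0.14. BAG3, which is itself a heat shock gene, rose in each group (0.46, 0.44 and 0.56, adjusted p 5.1e-05, 0.00013 and 2e-05). BAG1 rose from 32.5 to 110 CPM in siNAE1 cells and to 60.4 and 63.0 CPM in the others (1.76, 0.90 and 0.96, named after its values were seen, the largest adjusted p being 5.3e-10). Of 10 cytosolic J-domain proteins, 7 were higher and 3 lower in siNAE1, 6 and 2 in siUBE2M and 5 and 3 in siURM1 cells, with medians of 0.60, 0.52 and 0.25. DNAJB1, the main heat-inducible J-domain protein, went from 50.0 ± 2.51 CPM in control to 136 ± 7.13, 106 ± 7.82 and 81.7 ± 1.52 CPM (SD; log2 fold change 1.44, 1.08 and 0.71, adjusted p 3.8e-17, 1.1e-13 and 1.2e-08).

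Downstream of HSP70, transcripts of co-chaperones and of HSP90 were counted against the same shares of all genes. All 5 genes of this list (STIP1, ST13, STUB1, HSP90AA1 and HSP90AB1) were higher in siNAE1 and in siUBE2M cells, with medians of 0.78 and 0.62. In siURM1 cells 2 were higher and 1 lower, with a median of 0.14. HSP90AA1, the inducible HSP90, had 705 CPM in control, 1818 in siNAE1, 1138 in siUBE2M and 668 CPM in siURM1 cells, the last with a log2 fold change of -0.08 and an adjusted p of 0.34. Between siUBE2M and siURM1 cells HSP90AA1, HSP90AB1 and STUB1 differed (0.77, 0.47 and 0.70, adjusted p 3.9e-11, 4.5e-07 and 1.5e-07). STIP1 and ST13, which link HSP70 to HSP90, had differences of 0.08 and 0.06 (adjusted p 0.36 and 0.52) and were higher than control in siURM1 cells too (0.28 and 0.74). These 5 genes were named after their values were seen. In siURM1 cells neither HSP90 gene was called, HSP90AB1 having 0.14 and an adjusted p of 0.07.

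**Figure D4:**
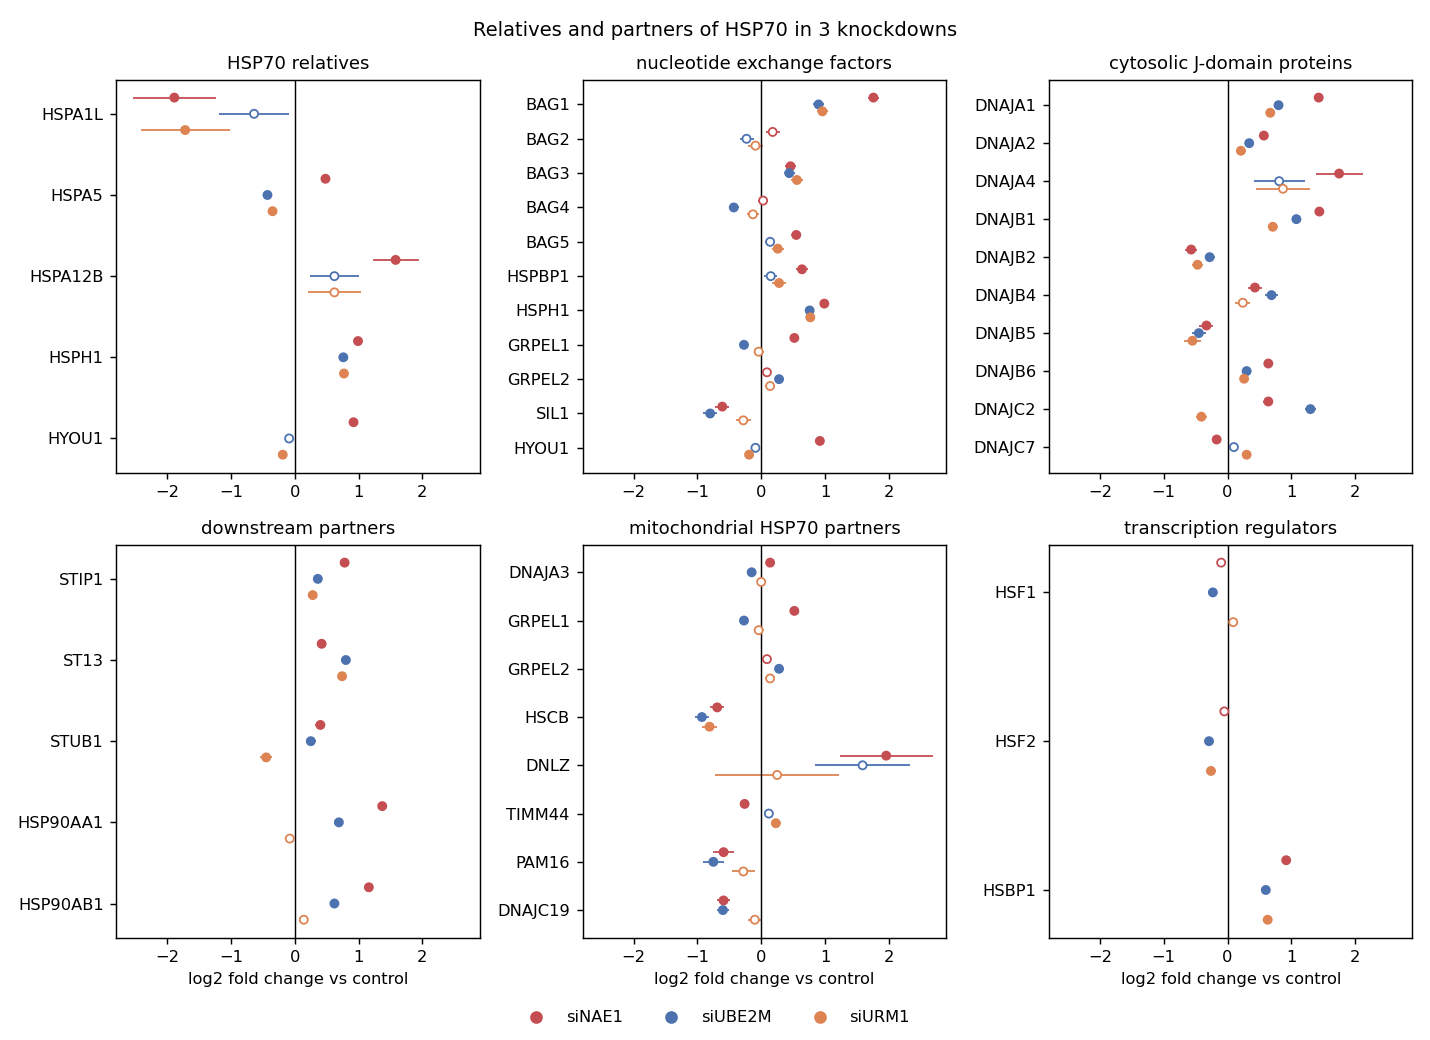
Log2 fold change against control of the tested genes in 6 lists of HSP70 relatives, partners and regulators, for siNAE1, siUBE2M and siURM1 cells (points, with bars of 1 SE on each side, open where the adjusted p was 0.05 or more). HSPH1, BAG1, BAG3 and DNAJB1 lie above 0 in all 3 knockdowns, while HSPA5 lies above 0 only in siNAE1.

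The mitochondrial partners of HSPA9 went both ways. Of 8, 3 were higher and 4 lower in siNAE1, 1 and 5 in siUBE2M and 1 and 1 in siURM1 cells, with medians of -0.09, -0.21 and -0.02, beside the shares of all genes given above. HSCB, the J-domain protein of iron-sulfur cluster assembly, fell in each knockdown (-0.69, -0.93 and -0.81, the largest adjusted p being 1.7e-06). PAM16 and DNAJC19, of the import motor, fell in siNAE1 (-0.59 and -0.59) and siUBE2M cells (-0.75 and -0.60) and had -0.28 and -0.10 in siURM1 cells (adjusted p 0.22 and 0.46). These 3 were named after their values were seen. The transcript of HSF1 was called higher in no group, with log2 fold changes of -0.10, -0.23 and 0.09 (adjusted p 0.23, 0.007 and 0.38). HSF2 had -0.05, -0.29 and -0.26 (adjusted p 0.6, 0.0019 and 0.011). The third regulator listed, HSBP1, a small protein that binds HSF1, was higher in each group (0.92, 0.60 and 0.63, named after its values were seen). The medians of this list of 3 were -0.05, -0.23 and 0.09.

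The genes whose pattern over the 11 libraries was closest to that of the HSPA1 sum and of HSPA8 were sought among 10467 genes that averaged 10 CPM or more. Likeness was the root mean square difference of log2 CPM after each gene's control mean was subtracted. Closest to the HSPA1 sum were INSIG1 (0.47), which restrains sterol synthesis, HSPA8 (0.53), the peroxide-reducing PRDX1 (0.62), NDRG1 (0.66) and the decoy receptor gene TNFRSF10D (0.77). Among the closest to HSPA8 were PRDX1 (0.43), HSPA1B (0.52), TNFRSF10D (0.64) and the lysosomal protease gene CTSA (0.66). INSIG1 shared the order siURM1 and siNAE1 above siUBE2M, with log2 fold changes of 2.32 in siNAE1, 1.04 in siUBE2M and 2.67 in siURM1 cells.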

How the data were processed

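Libraries were stranded, poly(A)-selected and read as 150-base pairs. Per the methods, the authors used fastp for trimming, HISAT2 2.0.5 for alignment (GRCh38) and featureCounts 1.5.0-p3 for counting; which annotation release and strand option the counting took is not given in the sources used here. The deposited table holds raw counts per gene, and the authors also deposited FPKM, used here only for per-length levels and an alternative test. Their own DESeq2 comparisons were not used.

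Genes were filtered with filterByExpr and tested with edgeR 4.0.16 (R 4.3.3) in 1 fit of 4 groups. Calls needed an adjusted p below 0.05, and strong calls also a log2 fold change of at least 1. DESeq2 1.42.0, limma 3.58.1, other scalings and filters and leaving out each library were alternatives. Intervals of a difference are 95% intervals from the SE. P-values measure the spread between these libraries. Positions are those of the table; windows, overlaps and names came from GENCODE v44, which held 58207 of the 58735 gene IDs, and promoters from RefSeq, matched by symbol for all members but HSPA14. Members and lists were chosen with earlier results of these data known. Named genes were all members, the siRNA targets, HSF1, HSF2, BAG3, DNAJB1, HSPH1, HSPA5 and HSPA6, list genes strongly called in 2 or more knockdowns, the 5 genes most like the HSPA1 sum and the 5 most like HSPA8 (1 of which is not reported here), and overlapping genes. Partner genes outside this rule are marked in the text as named after their values were seen. The rule on strong calls also took NEFM (log2 fold change 1.19 in siNAE1 and 1.19 in siURM1) and LUM (1.64, 2.09 and 1.82, at most 1.33 CPM on average) from the marker lists.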

Additional observations from a re-analysis of the deposited data

How the results depend on the processing

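HSPA1B, HSPA8, HSPA2, the HSPA1 sum, HSPA9 and MSANTD7 kept their direction and their call at an adjusted p below 0.05 against control under every alternative tried. So did HSPA1A, except that with at least 10 counts in every library it was not tested (8 counts in control replicate 3), which left 3 strong upward calls in each knockdown. Counts of called rows moved as follows. In siNAE1 cells the 4 lower rows ranged from 2 to 4 when 1 library was left out and were 2 under limma on log2(FPKM + 1), with and without a minimum of 1 FPKM, and on log2(FPKM + 0.1). In siUBE2M cells the 4 strong upward calls were 2 under limma on log2(FPKM + 1), with and without that minimum, and the 4 of siNAE1 and of siURM1 cells were 3 there. The pseudocount shrinks low genes: HSPA2 had 0.60, 0.93 and 0.65 in siNAE1, siUBE2M and siURM1 cells, against 1.85, 2.48 and 2.00 by edgeR, and HSPA1A had 0.75 in siUBE2M cells against 1.59. In siURM1 cells the 4 lower rows ranged from 2 to 4 without 1 library and were 2 under limma on log2(FPKM + 0.1). For siNAE1 minus siUBE2M, the 1 lower row ranged from 0 to 1 without 1 library, was 2 under library totals and 0 under the 3 limma settings. For siNAE1 minus siURM1, the 5 higher rows ranged from 3 to 5 without 1 library and were 3 under limma, and the 0 lower rows ranged from 0 to 1 and were 1 under library totals. For siUBE2M minus siURM1, the 1 higher row ranged from 1 to 2. The cause was not tested.

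Signs turned for values that did not pass the edgeR test, of which HSPA4 in siNAE1 passed under library totals. Without 1 library, log2 differences ranged from -0.05 to 0.03 for HSPA4 (siNAE1), -0.08 to 0.04 and -0.10 to 0.12 for HSPA12A (siUBE2M and siURM1) and -0.06 to 0.03 for HSPA4L (siURM1). For siNAE1 minus siURM1 they ranged from -0.12 to 0.37 (HSPA1A), -0.55 to 0.43 (HSPA2), -0.09 to 0.20 (HSPA13) and -0.11 to 0.11 (HSPA14), and for siUBE2M minus siURM1 from -0.18 to 0.11 (HSPA13) and -0.15 to 0.07 (HSPA12A). HSPA12A in siURM1 was -0.01 with at least 10 counts in every library and -0.08 under library totals. Library totals shifted the median of all genes by -0.125 in siNAE1 cells, the size of the HSPA4 value there (-0.13, adjusted p 0.038).

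Same-numbered libraries did not deviate together (correlations from -0.13 to 0.146). With the replicate block, 6 rows were higher and 4 lower in siNAE1, 5 and 5 in siUBE2M and 5 and 4 in siURM1 cells; of single genes, only HSPA4 in siNAE1 minus siURM1 lost its call (0.17, adjusted p 0.052), as it did under 18 alternatives in all. Levels and shares with main transcript lengths were alternatives chosen after seeing the data. Counts under 30 limit HSPA1A and HSPA2 in control cells.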
